A study of Mus musculus with 18 samples.

Results

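The Hoxb cluster of the mouse holds 9 of the genes examined here, Hoxb1 to Hoxb9, in a row on chromosome 11. They were taken by symbol from the gene expression table, where all 9 were found among 53946 genes, and were followed through RNA, DNA methylation and histone H3 lysine 36 trimethylation (H3K36me3). RNA came from 4 groups of 3 libraries each. WT libraries were from C57BL/6 mice. NHD13 libraries were from mice with the NUP98-HOXD13 fusion transgene and floxed, undeleted Setd2 (NHD13/Setd2 flox/flox). KO libraries carried the same transgene and have the label NHD13/Setd2 KO, Mx1-Cre being the deleter. All of these were hematopoietic stem and progenitor cells (HSPCs) sorted from bone marrow. AML libraries were C-Kit+ cells sorted from the spleen of NHD13/Setd2 KO mice once leukemia had developed. AML therefore differed from KO in tissue and in sort as well as in disease, and these cannot be told apart. All mice had the strain label C57BL/6, no age was given, and the transgene was present in every group but WT. Mx1-Cre is switched on through interferon signalling and acts in blood cells and in other tissues. Whole-genome bisulfite sequencing covered the same groups with 1 library each. H3K36me3 was profiled in C-Kit+ spleen cells at the leukemia stage, with 1 library from NHD13 mice (NHD13 AML) and 1 from NHD13/Setd2 KO mice (KO AML), so the marrow groups had no H3K36me3 profile. The labels do not say whether the 3 RNA libraries of a group came from separate mice, so p-values measure the spread between these libraries.

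Hox genes encode homeodomain transcription factors that give cells of the embryo their position along the body axis. Within a cluster the genes lie in the order in which they are expressed, with the low-numbered (anterior) genes at the 3′ end and the high-numbered (posterior) genes at the 5′ end. In blood, Hox genes are most active in stem cells and early progenitors and are shut down as cells mature. Hoxb4 is best known for enlarging the stem cell pool when it is expressed at high levels, and Hoxb8 for holding myeloid progenitors in an immature, dividing state. NUP98-HOXD13 is a fusion oncoprotein that carries a Hox homeodomain, and mice with it develop myelodysplastic syndrome and leukemia. Setd2 is the enzyme that writes H3K36me3 over transcribed gene bodies, a mark that the de novo DNA methyltransferases can bind.

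In mm10 coordinates the cluster ran from Hoxb9 at chr11:96271330-96276595 to Hoxb1 at chr11:96365746-96368254, a length of 96.9 kb on the plus strand. Between them lay Hoxb8, Hoxb7 and Hoxb6, then Hoxb5 at chr11:96303512-96306121, Hoxb3 at chr11:96307101-96347930 and Hoxb2 at chr11:96351632-96354020. Hoxb4, at chr11:96318267-96321638, lay within the span of Hoxb3. The noncoding RNA gene Hoxb5os, at chr11:96291037-96306910, overlapped Hoxb5 and Hoxb6. The treatment of strand and overlap in the counting was not given in the sources used here. Reads of these overlapping genes may have been shared or dropped. Promoters of 3 of the 9 members (Hoxb1, Hoxb4 and Hoxb8) were found in the RefSeq promoter table of GRCm38.p6, the assembly also called mm10. The 250 bases before the start are printed for Hoxb4, the member with most RNA, and for Hoxb8, a member that was silent in AML, because both windows lay wholly inside regions whose methylation changed. They are on the plus strand, with CG dinucleotides, the sites of DNA methylation, in capitals. The Hoxb8 start used by that table lies inside the gene's annotated span.
Hoxb4, chr11:96318017-96318266: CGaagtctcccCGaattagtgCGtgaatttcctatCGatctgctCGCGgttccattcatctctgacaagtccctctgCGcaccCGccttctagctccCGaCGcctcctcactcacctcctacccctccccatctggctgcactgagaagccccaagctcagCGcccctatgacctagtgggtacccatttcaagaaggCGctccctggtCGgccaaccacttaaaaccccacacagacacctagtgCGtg
Hoxb8, chr11:96281655-96281904: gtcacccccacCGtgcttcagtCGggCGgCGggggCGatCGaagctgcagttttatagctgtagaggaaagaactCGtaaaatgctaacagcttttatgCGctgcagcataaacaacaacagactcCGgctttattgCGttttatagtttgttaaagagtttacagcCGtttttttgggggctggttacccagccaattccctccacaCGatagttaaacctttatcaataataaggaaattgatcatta
The Hoxb4 window held 14 CG dinucleotides and the Hoxb8 window 12. The median over all 32851 promoters of the table was 6, with quartiles of 2 and 16. On both strands, 3 motifs were searched: CACGTG, which USF factors bind, CCAAT, which NF-Y binds, and TGATNNAT, a site for Hox and Pbx proteins. None of them was found in the Hoxb4 window. The Hoxb8 window held CCAAT 1 time on the plus strand and TGATNNAT 1 time on the minus strand. Of all promoters, 6.02% held CACGTG, 33.8% CCAAT and 7.68% TGATNNAT.

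Total counts ran from 18673704 to 28127686 per library. Setd2 itself, summed over the whole gene, stood at 31.5 to 34.6 CPM (counts scaled to library size) in NHD13 and 29.2 to 34.9 in KO, which overlapped, and at 179 to 187 in AML. A whole-gene count need not show the loss of the floxed part, so KO stands below for the libraries labelled KO. The marrow groups did not hold the same cells by their markers. The summed level of 8 stem and progenitor markers was 736 to 755 CPM in WT, 89.7 to 95.1 in NHD13, 321 to 335 in KO and 547 to 560 in AML. The sum of 10 neutrophil markers was 26600 to 29700, 134000 to 155000, 52000 to 54800 and 22300 to 22700 in the same order. All 8 of the stem and progenitor markers were detected in each group, but Tek, a receptor of long-term stem cells, was 7.35 to 8.24 CPM in WT and at most 0.0524 in NHD13. Xist was 115 to 218 CPM in WT and 66 to 137 in NHD13 but at most 0.105 in KO and AML, and Y-linked Eif2s3y was 57.6 to 71.3 CPM in KO and AML and at most 0.0494 in WT and NHD13. The sex of the mice and the KO label can thus not be told apart. In bulk RNA, fewer expressing cells and less RNA per cell cannot be told apart either.

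The Hoxb genes were expressed at low levels throughout, and which of them were read changed from group to group. WT cells had mainly Hoxb4. NHD13 and KO cells had Hoxb4 together with Hoxb6 and Hoxb7, and fewer counts of Hoxb5 and Hoxb8. AML cells had Hoxb4 and Hoxb3 and almost no counts of Hoxb6 to Hoxb9. Over the 3 libraries of a group, Hoxb1 to Hoxb5 summed to 92 counts in WT, 81 in NHD13, 53 in KO and 194 in AML. Hoxb6 to Hoxb9 summed to 13, 96, 141 and 1 count in the same order. The whole cluster summed to 105, 177, 194 and 195 counts. CPM here is the count divided by the library's total over tested genes, scaled by TMM factors. Summed CPM of Hoxb6 to Hoxb9 was 0.0856 to 0.309 in WT, 1.62 to 1.73 in NHD13, 1.53 to 2.56 in KO and 0 to 0.039 in AML. Summed CPM of Hoxb1 to Hoxb5 was 1.24 to 1.28, 1.36 to 1.46, 0.571 to 1.05 and 2.18 to 3.19. The posterior sums in NHD13 and KO did not overlap with those in WT or AML, and the anterior sums in AML did not overlap with those of any other group. These sums are a description and carry no test.

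**Figure D1:**
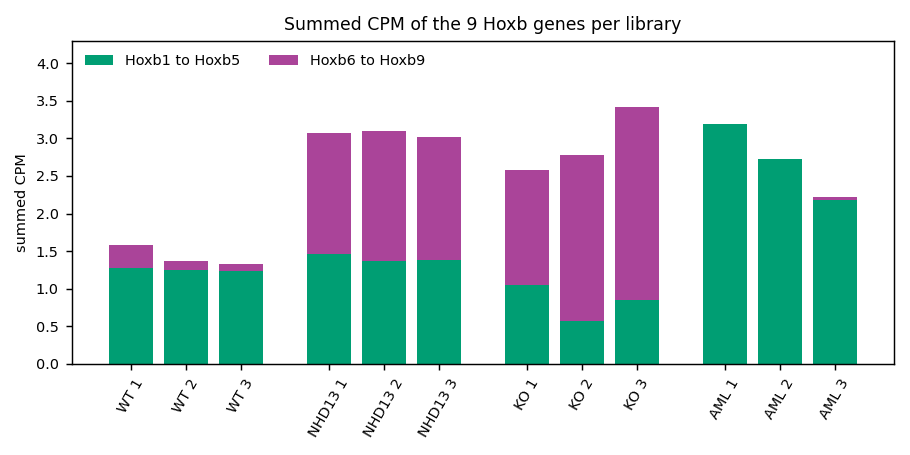
Summed CPM of Hoxb1 to Hoxb5 (green) and of Hoxb6 to Hoxb9 (purple) on the vertical axis, stacked per library, for the 12 RNA-seq libraries on the horizontal axis. The purple part is between 1.53 and 2.56 CPM in the 6 NHD13 and KO libraries and at most 0.039 CPM in the 3 AML libraries.

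Of the 9 members, Hoxb4, Hoxb6 and Hoxb7 had enough counts to enter the test, with 16233 genes tested in all, and the other 6 members were not tested. A gene that is high in only 1 group can pass this filter, so a member that did had reason to differ, and no count over the tested members is used as support. The test was edgeR's quasi-likelihood test on the counts, with Benjamini-Hochberg adjustment over all tested genes and a threshold of 0.05. For members that were not tested, the ratio of summed counts is given with an exact 95% interval. These intervals cover counting error only and not the spread between libraries. Where a group had no counts, the fold is a lower bound set against a floor of 3 counts over that group.

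Hoxb4 was the one member detected in all 12 libraries, and it was highest in AML. Its CPM was 0.812, 0.872 and 0.898 in WT, 0.918, 0.682 and 0.890 in NHD13, 0.580, 0.304 and 0.665 in KO, and 2.72, 2.26 and 1.75 in AML. Every AML library lay above every other library, and every KO library lay below every WT and NHD13 library. In length-corrected units (FPKM), where genes can be compared, mean Hoxb4 was 0.357 ± 0.0129 (SD, n = 3) in WT, 0.264 ± 0.046 in NHD13, 0.186 ± 0.067 in KO and 1.08 ± 0.231 in AML. Hoxb4 rose from KO to AML by 2.14 ± 0.31 (SE) on the log2 scale, a 4.41-fold difference (adjusted p = 4.09e-06). It was also higher in AML than in WT, by 1.37 ± 0.28 (adjusted p = 0.000186), and than in NHD13, by 1.42 ± 0.29 (adjusted p = 0.000206). NHD13 differed from WT by -0.05 ± 0.33 (adjusted p = 0.913). The lower level in KO did not pass the test against NHD13 (-0.72 ± 0.36, adjusted p = 0.123) or against WT (-0.77 ± 0.35, adjusted p = 0.0928), although the groups did not overlap. On log2(FPKM + 0.1), limma put the second of these past the threshold, at -0.70 with an adjusted p of 0.0197. FPKM was not scaled by the TMM factors, which ran from 1.051 to 1.089 in WT and from 0.922 to 0.935 in KO. Relative to WT, Hoxb4 in KO therefore lay lower in FPKM than in CPM. By level the groups were thus ordered KO, NHD13, WT and AML, and no neighbours below AML differed beyond their spread in the count test.

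Hoxb3, whose span surrounds Hoxb4 and which shares roles with it in progenitor proliferation, had few counts. WT libraries held 2, 0 and 3 counts, NHD13 2, 5 and 1, KO 2, 1 and 0, and AML 10, 6 and 11. In CPM the AML libraries (0.431, 0.256 and 0.429) lay above all WT and KO libraries, while NHD13 replicate 2 (0.262) overlapped with them. The summed counts gave an AML to KO ratio of 8.25, with an exact 95% interval of 2.54 to 42.5, and an AML to WT ratio of 5.47, with an interval of 2.08 to 18.2. The AML to NHD13 ratio was 2.7, with an interval of 1.19 to 6.87. Without a filter on low counts, when 33660 genes were tested by edgeR, Hoxb3 was higher in AML than in KO by 2.91 on the log2 scale (adjusted p = 0.00648) and than in WT by 2.38 (adjusted p = 0.0161). In that fit the difference of 1.40 from NHD13 did not pass (adjusted p = 0.178).

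Hoxb5, a marker of long-term stem cells in mouse marrow, was low in all groups and lowest in AML. It had 8, 5 and 2 counts in WT, 6, 6 and 8 in NHD13, 7, 5 and 4 in KO and 1, 3 and 0 in AML. AML and KO libraries did not overlap, while WT overlapped with AML in counts. The AML to KO ratio was 0.229, with an exact 95% interval of 0.0558 to 0.711. In the same unfiltered edgeR fit, the adjusted p was 0.0648 against KO and 0.0126 against NHD13. Hoxb5 and Hoxb4, neighbours in the cluster, thus lay at opposite ends of their ranges in AML.

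Hoxb2 and Hoxb1, which pattern the hindbrain in the embryo, were near 0. Hoxb2 had 2, 4 and 3 counts in WT, 0, 0 and 1 in NHD13, none in KO and 0, 2 and 0 in AML. The KO total was at least 2.71-fold lower than that of WT, but in the unfiltered edgeR fit this difference did not pass (adjusted p = 0.0772). The NHD13 to WT ratio was 0.141, with an interval of 0.00321 to 1.02 that includes no difference. Hoxb1 had 2, 2 and 0 counts in NHD13, 0, 1 and 0 in KO and none in WT and AML. At this depth no difference in Hoxb1 was detectable between KO and NHD13, with a ratio of 0.218 and an interval of 0.00443 to 2.2.

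Hoxb7, a posterior gene with roles in cell proliferation, was read in NHD13 and KO but hardly in WT and not in AML. It had 0, 1 and 0 counts in WT, 21, 15 and 19 in NHD13, 10, 39 and 19 in KO and 0 in each AML library. In CPM this was 0.953 ± 0.174 (SD, n = 3) in NHD13 and 0.971 ± 0.482 in KO, against 0.0139 ± 0.024 in WT. NHD13 and KO libraries overlapped each other and none overlapped with WT or AML. Hoxb7 rose from WT to NHD13 (adjusted p = 1.72e-05), and the ratio of summed counts was 69.7, with an exact 95% interval of 12 to 2800. The single WT count was in replicate 2, and without that library NHD13 was at least 15.6-fold above the floor of the other 2. KO and NHD13 differed by 0.06 ± 0.42 on the log2 scale (adjusted p = 0.925), and this difference took either sign when single libraries were left out. Hoxb7 was also higher in KO than in WT (adjusted p = 2.85e-05). It fell from KO to AML (adjusted p = 2.4e-06) and was at least 24.7-fold lower there. In FPKM, Hoxb7 was the leading member in NHD13 (0.505 ± 0.103) and KO (0.584 ± 0.293), above Hoxb4 in the mean of both groups.

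Hoxb6, which has been linked to the expansion of myeloid precursors, followed the same order of groups. Its counts were 8, 2 and 2 in WT, 8, 13 and 13 in NHD13, 14, 13 and 16 in KO and 0 in each AML library. Mean CPM was 0.159 ± 0.130 (SD, n = 3), 0.585 ± 0.134, 0.664 ± 0.147 and 0. In CPM, no NHD13 or KO library reached down to the highest WT library. The rise from WT to NHD13 was 1.82 ± 0.56 on the log2 scale (adjusted p = 0.0115), and that from WT to KO was 1.97 ± 0.54 (adjusted p = 0.00885). Without WT replicate 2 the first of these was 1.52 (adjusted p = 0.0513), and without WT replicate 3 it was 1.54 (adjusted p = 0.0506), so the call was lost without either. Without WT replicate 1, the WT library with most counts, the change was 2.72 to NHD13 and 2.88 to KO. KO differed from NHD13 by 0.16 ± 0.46 (adjusted p = 0.819). Hoxb6 fell from KO to AML (adjusted p = 1.06e-05) and was at least 15.6-fold lower there. It was also lower in AML than in WT (adjusted p = 0.00266), by at least 3.95-fold, a call that limma on log2(FPKM + 1) did not make (adjusted p = 0.0536). WT replicate 1 held 8 of the 12 WT counts, and without it the adjusted p was 0.0193 and AML was at least 2.03-fold lower.

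Hoxb8 had few counts, spread unequally over the libraries. No WT or AML library had a count, NHD13 had 1, 5 and 1, and KO had 5, 3 and 18. The KO to NHD13 ratio was 3.24, with an exact 95% interval of 1.37 to 8.84, but KO replicate 3 alone held 18 of the 26 KO counts, and the groups overlapped. Without that library, a choice made after the values were seen, the ratio was 1.46, with an interval of 0.463 to 4.73. In the unfiltered edgeR fit the KO to NHD13 difference had an adjusted p of 0.217. The KO total was at least 9.58-fold higher than that of WT and the NHD13 total at least 2.96-fold higher, and in the unfiltered fit their adjusted p-values were 0.000159 and 0.0243. Of the 7 NHD13 counts, 5 came from replicate 2, and without them NHD13 lies under the floor. AML was at least 9.45-fold lower than KO. The bounds of KO against WT and AML rest mostly on KO replicate 3, which held 18 of the 26 KO counts. They were not computed without that library. Hoxb9, at the posterior end of the cluster, had 0, 3 and 1 counts in KO, 1 in a single AML library and none in WT and NHD13, and no fold is given against AML.

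**Figure D2:**
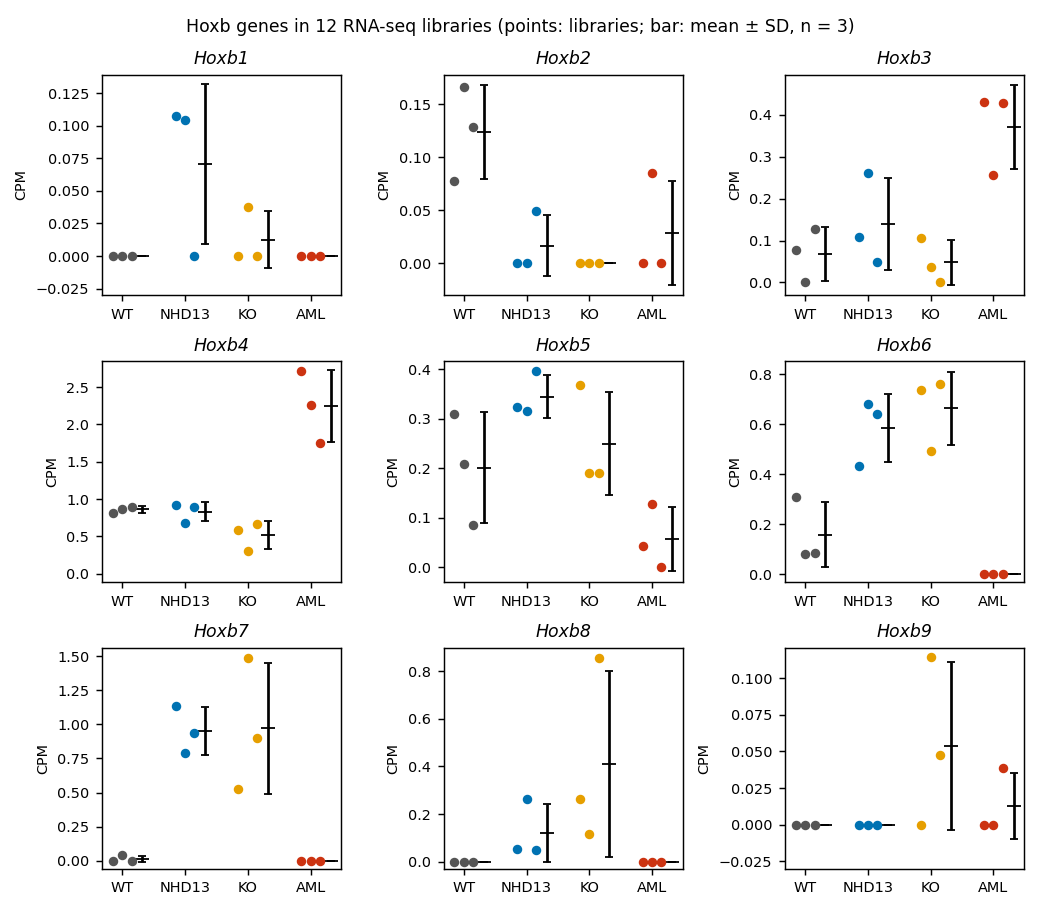
CPM on the vertical axis (linear, scaled per gene) of Hoxb1 to Hoxb9 in the WT, NHD13, KO and AML libraries. Points are libraries, and bars give the mean and SD of 3. Hoxb4 lies between 1.75 and 2.72 CPM in AML and below 1 CPM elsewhere, while Hoxb6, Hoxb7 and Hoxb8 are at 0 in all AML libraries.

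The counts of tested members passing are given beside the shares over all genes as a description only. Hoxb6 and Hoxb7 had too few counts in WT and AML to enter the test through those groups. Differences of these genes from WT or AML were thus favoured by the filter, and their number is no sign of enrichment. From WT to NHD13, 2 members rose (Hoxb6 and Hoxb7) and none fell, where 25.3% of all tested genes rose and 28.7% fell. From NHD13 to KO, 0 of the 3 tested members passed in edgeR's test, 0 had an unadjusted p under 0.05 and 0 passed with DESeq2 or limma, where 20.6% of genes rose and 20.3% fell. From KO to AML, Hoxb4 rose and Hoxb6 and Hoxb7 fell, where 42.8% of genes rose and 39.5% fell. In the comparisons that are not steps of the design, 37.1% of all genes passed between KO and WT, 84.7% between AML and WT and 82.4% between AML and NHD13. Members passing were 2, 2 and 3 in these. With so many genes called, a member's call in AML places it among most genes. The neutrophil and stem cell marker sums given above moved between the same groups, and their part in the Hoxb values was not tested.

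The noncoding gene Hoxb5os, which is not a member but overlaps Hoxb5 and Hoxb6, had more RNA per length than either in the marrow groups, with mean FPKM of 1.07 in WT, 2.40 in NHD13 and 0.890 in KO. It had 14, 17 and 20 counts in WT, 36, 26 and 57 in NHD13, 14, 17 and 13 in KO and 0 in each AML library. It was higher in NHD13 than in every library of the other groups. Hoxb5os rose from WT to NHD13 by 1.55 ± 0.34 on the log2 scale (adjusted p = 0.00106), and changed from NHD13 to KO by -1.62 ± 0.35 (adjusted p = 0.0013). It fell again in AML (adjusted p = 3.53e-06), to at least 16-fold below KO. KO and WT differed by -0.07 ± 0.38 (adjusted p = 0.911). From NHD13 to KO, where Hoxb5os fell, Hoxb6 and Hoxb7 did not pass the test. The other noncoding genes in the cluster, Hoxb3os, Mir10a and, just outside it, Mir196a-1, had 3, 1 and 0 counts over all 12 libraries. Among 19 genes within 200 kb that are not members, only Hoxb5os and Atp5g1 were tested. Atp5g1, a subunit of mitochondrial ATP synthase, changed from KO to AML by -3.32 ± 0.06 on the log2 scale (adjusted p = 1.2e-18).

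The other Hox clusters give a scale for these levels. In summed FPKM, Hoxb had means of 0.586, 1.21, 1.35 and 1.23 in WT, NHD13, KO and AML. Hoxa had 25.3, 41.2, 74 and 140, Hoxc 0.049, 6.41, 21.2 and 22.9, and Hoxd 0, 0.0654, 0.0383 and 0.368. Hoxb was thus the least expressed cluster but Hoxd in the 3 groups with the transgene. Of 11 Hoxa genes 9 were tested, and 5 rose from WT to NHD13, 4 from NHD13 to KO and 7 from KO to AML, where another 2 fell. The median Hoxa changes were 0.70, 0.68 and 2 on the log2 scale, beside -0.04, 0.02 and 0.07 over all genes. Hoxa9, a driver of myeloid leukemia, rose by 0.89 ± 0.06 and then by 0.68 ± 0.06 in the first 2 steps (adjusted p = 6.18e-10 and 3.25e-08). Of 9 Hoxc genes 5 were tested, and all 5 rose in the first step and again in the second. Their median changes were 7.32 and 1.67 on the log2 scale, and 25.3% and 20.6% of all tested genes rose in these steps. Summed Hoxc FPKM was at most 0.113 in WT, so these genes entered the test through the groups with the transgene. Their rise from WT was thus favoured by the filter. From KO to AML, 2 Hoxc genes rose and 3 fell, among them Hoxc5, with a change of -1.56 ± 0.09 (adjusted p = 4.79e-11). No Hoxd gene was tested. The NHD13 libraries enter both of the first steps, so those changes are not independent of each other.

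Cofactors and regulators of Hox genes changed in mixed directions. Of 8 tested cofactors of the Meis, Pbx and Pknox families, 2 rose and 4 fell from WT to NHD13, with a median of -0.59 on the log2 scale. Meis1, which binds DNA beside Hox proteins and is a stem cell gene, was 62.7 CPM in WT and 2.11 in NHD13, a change of -4.89 ± 0.12 on the log2 scale (adjusted p = 1.05e-16), and Pbx3 rose by 2.90 ± 0.10 (adjusted p = 1.1e-14). From NHD13 to KO, 3 cofactors rose and 1 fell (median -0.05), with Meis1 up by 3.40 ± 0.12 and Pbx3 by 1.02 ± 0.08. From KO to AML, 5 rose and 2 fell (median 0.57), with Pbx2 up by 4.24 ± 0.14 and Pbx4 lower by -1.18 ± 0.10. Among 35 tested regulators of Hox transcription (the MLL, Polycomb, Cdx, USF, NF-Y and retinoid receptor genes), 4 rose and 11 fell in the first step, 11 rose and 5 fell in the second, and 28 rose and 7 fell in the last. Their medians were -0.10, 0.01 and 1.2, beside -0.04, 0.02 and 0.07 over all genes. Of all tested genes, 25.3% rose and 28.7% fell in the first step. In the second step 20.6% rose and 20.3% fell, and in the last 42.8% rose and 39.5% fell. Kmt2a, the MLL methyltransferase that maintains Hox expression, was 38.3, 16.7, 29.8 and 179 CPM from WT to AML, and Nfya, a CCAAT-binding subunit, rose from KO to AML by 3.94 ± 0.12 (adjusted p = 6.02e-15). Of 20 long-term stem cell genes, 18 fell from WT to NHD13 and 1 rose (median -3.54), a step in which Hoxb4 did not pass the test. From NHD13 to KO 14 rose and none fell (median 1.68), and from KO to AML 5 rose and 9 fell (median -0.60), while Hoxb4 rose.

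The genes most like Hoxb4 over the 12 libraries, by Pearson r of log2(CPM + 0.5), were Pias2 (0.965), 6530409C15Rik (0.963), Gm5113 (0.962), Dennd2a (0.961) and Thap12 (0.96). Pias2 was 28.6, 27.8, 24 and 41.9 CPM from WT to AML, the same order as Hoxb4 with the highest level in AML. Among the members, r was 0.842 between Hoxb6 and Hoxb7, -0.776 between Hoxb4 and Hoxb6 and -0.678 between Hoxb4 and Hoxb7. These values describe 12 libraries in 4 groups, which share depth and group differences, and carry no test.

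DNA methylation in the cluster moved at each step of the design. The authors deposited a table of differentially methylated regions (DMRs) for each step, with the mean methylation of both libraries, 1 library per side, no coverage and no p-value. The methylation values below are theirs, and with 1 library per group they have no replicate check. In the cluster with 10 kb on either side (117 kb), the WT to NHD13 table held 9 DMRs that gained methylation and 13 that lost it. The NHD13 to KO table held 11 gains and 5 losses, and between KO and AML there were 21 gains and 15 losses. DMRs covered 10.2%, 7.19% and 25.1% of this window. Over the whole genome, gains were 18.4% of 58684 DMRs in the first table, 77.6% of 37430 in the second and 22.2% of 106032 in the last. The NHD13 library enters the first 2 tables and the KO library the last 2, so values at adjoining steps are not independent.

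**Figure D3:**
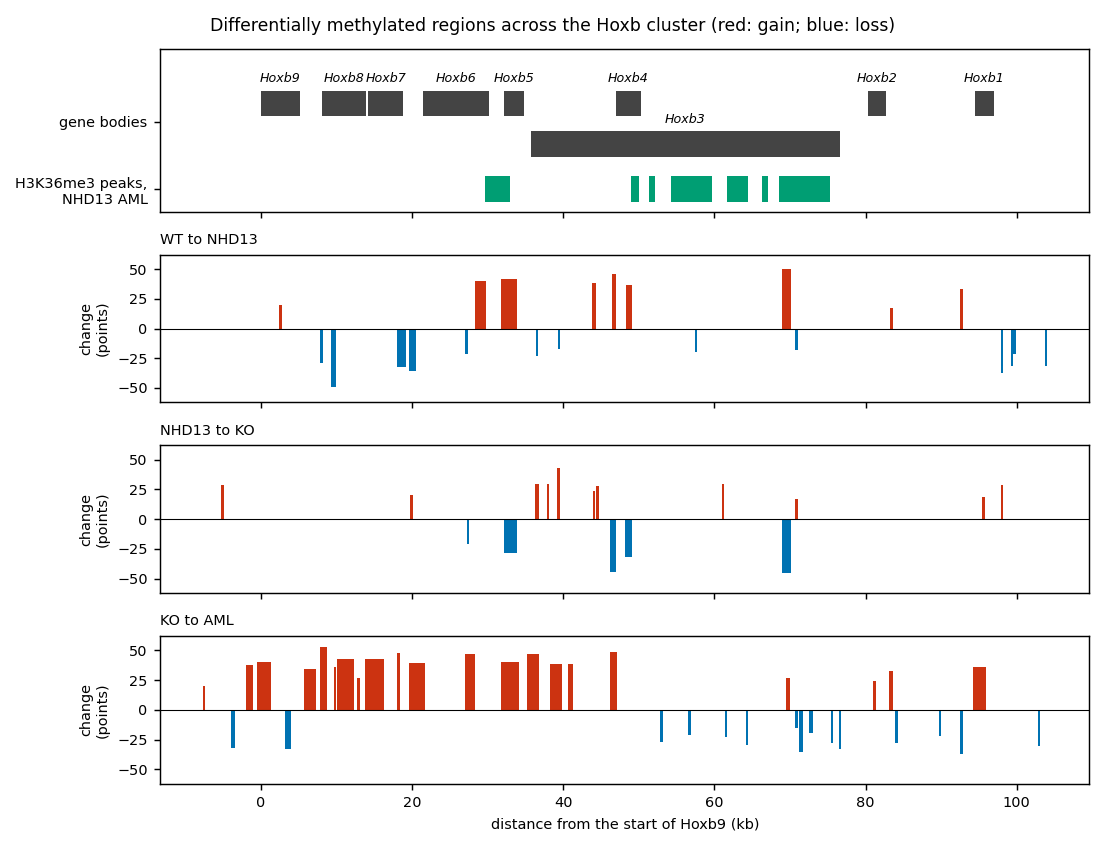
Map of the Hoxb cluster against the distance from the start of Hoxb9 in kb. The top panel shows gene bodies and the 7 H3K36me3 peaks of the NHD13 AML library, and the lower panels show the authors' DMRs for each step, drawn to width (the narrowest widened to be visible), with the change in methylation in percentage points (red gain, blue loss). In the KO to AML panel the gains from Hoxb9 to Hoxb6 stand together, with 10 gains and 1 loss.

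The posterior genes, from Hoxb9 to Hoxb6, were covered by gains at the step to leukemia. In the KO to AML table, this stretch of 30240 bp held 10 gains and 1 loss, and the gains covered 42.4% of it with 1271 CpG sites. The same stretch held 2 gains and 5 losses in the WT to NHD13 table and 1 of each in the NHD13 to KO table. The region over the start of Hoxb9 (chr11:96270873-96272691, 282 CpG sites) went from 14.4% methylated in KO to 54.6% in AML. Inside Hoxb8, chr11:96281461-96283733, with 212 CpG sites and the promoter printed above, went from 9.14% to 51.9%. The region from the end of Hoxb8 into Hoxb7 (chr11:96285136-96287605, 255 CpG sites) went from 11.8% to 54.9%. In Hoxb6, chr11:96298391-96299649 went from 12.3% to 59.2%. All 4 regions were below 15% in KO, a group with Hoxb6, Hoxb7 and Hoxb8 RNA, and between 51.9% and 59.2% in AML, where these genes had no counts. The other gains of the stretch started between 8.18% and 40.2% in KO and ended between 41.0% and 88.0% in AML. The regions over Hoxb9, inside Hoxb8 and into Hoxb7 had no DMR in either earlier table. No methylation value of WT or NHD13 is therefore given for these regions. WT, like AML, had hardly any RNA of these genes, with 1 count of Hoxb7 and 0 of Hoxb8. A link between methylation and RNA was not tested. At the step from WT to NHD13, where Hoxb6 and Hoxb7 RNA rose, DMRs in this stretch went both ways. The widest gain (chr11:96299751-96301200, 115 CpG sites) lay inside Hoxb6 and went from 28.6% to 68.8%. A short loss (chr11:96298391-96298448, 4 CpG sites), from 79.5% to 57.8%, lay inside the Hoxb6 region that later gained in AML. A region reaching past the end of Hoxb7 (chr11:96289385-96290528) went from 84.6% to 52.2% there, and one in Hoxb8 (chr11:96280674-96281363) from 59.1% to 9.6%.

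The anterior genes, from Hoxb5 to Hoxb1, had regions of opposite course. Of those with a DMR in each table, 3 gained methylation in NHD13, lost it in KO and gained it again in AML, and 3 others, all in Hoxb3, lost it in NHD13 and gained it in KO. The region over the start of Hoxb4, which holds the whole promoter printed above, went from 32.1% in WT to 77.8% in NHD13 (chr11:96317764-96318360, 50 CpG sites). In the next table it went from 77.6% in NHD13 to 33.5% in KO (chr11:96317604-96318360), and in the last from 31.1% in KO to 80.2% in AML (chr11:96317604-96318509). Hoxb4 RNA was at 0.861, 0.830, 0.516 and 2.24 mean CPM in these groups. It was highest in AML, where the start was methylated to much the same degree as in NHD13. At the other steps Hoxb4 RNA did not pass the test. A region over Hoxb5 went from 12.1% to 54.0% (chr11:96303147-96305280, 238 CpG sites), from 62.2% to 33.8% (chr11:96303554-96305242) and from 31.1% to 71.5% (chr11:96303078-96305448). A region inside Hoxb3 (chr11:96340312-96341472, 91 CpG sites) went from 24.2% to 74.6% and back to 29.7%, and its core (chr11:96340759-96341280) from 26.8% to 53.3% in AML. The body of Hoxb4 gained at the first step, from 20.9% to 57.3% (chr11:96319669-96320412), lost at the second, from 56.0% to 24.5% (chr11:96319465-96320475), and had no DMR of its own at the last. Of the Hoxb3 regions that lost methylation first, one went from 28% to 11% (chr11:96310599-96310991), from 11.6% to 54.2% (chr11:96310499-96310991) and from 47.7% to 86.2% in AML (chr11:96309635-96311155). Another went from 48.2% to 24.7%, from 22.8% to 52.4% and from 26.6% to 73.8%, and the last from 89.5% to 71.5%, from 72.2% to 89.4% and from 90.3% to 74.6%. From NHD13 to KO the anterior stretch held 8 gains and 4 losses in all. In this anterior stretch of 64743 bp, the KO to AML table held 9 gains and 12 losses, so gains did not prevail there by number. By extent they did, since gains covered 14.8% of the stretch with 780 CpG sites and losses 5.4% with 222.

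**Figure D4:**
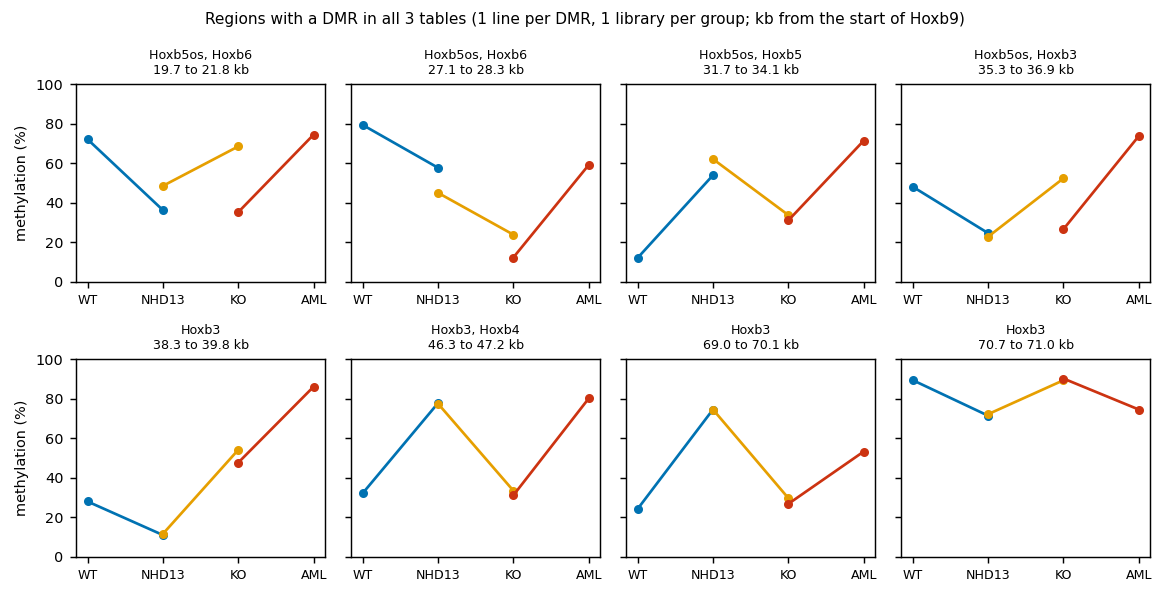
Methylation in percent (vertical axis, 0 to 100) of the 8 regions of the window that hold a DMR in each of the 3 tables, with 1 line per DMR and 1 library per group; positions are in kb from the start of Hoxb9. Lines that meet at a group come from tables that share that library, and ends differ where the DMRs differ in extent. The region at the start of Hoxb4 (the panel named Hoxb3, Hoxb4) is at 32.1% in WT, 77.8% in NHD13, 33.5% in KO and 80.2% in AML.

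By member, 5 of 9 gene bodies overlapped a gain in the WT to NHD13 table (Hoxb9, Hoxb6, Hoxb5, Hoxb4 and Hoxb3) and 4 a loss, where 11.2% of 49943 RefSeq genes overlapped a gain and 23.9% a loss. In the NHD13 to KO table, 2 members overlapped a gain (Hoxb3 and Hoxb1) and 4 a loss (Hoxb6, Hoxb5, Hoxb4 and Hoxb3), where the shares of all genes were 17.3% and 9.47%. In the KO to AML table all 9 members overlapped a gain and 2 a loss (Hoxb9 and Hoxb3), where the shares were 18.8% and 22.6%. Members differ in length and overlap each other, so these counts are not 9 separate observations. The gains to AML were dense in CpG sites, with a median of 9.33 per 100 bp and a median KO methylation of 26.8%. The losses had 3.94 CpG sites per 100 bp and started at a median of 87.3%. The median over all DMRs of that table was 3.67 per 100 bp, but 82461 of its 106032 DMRs were losses. A median over its gains alone was not computed, so the density is not shown to be particular to Hoxb. Gains from KO to AML covered 23.6% of the Hoxb cluster, 15.4% of Hoxa, 27.8% of Hoxc and 35.4% of Hoxd, so Hoxb lay within the range of the other clusters.

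H3K36me3 was called in the middle of the cluster in the NHD13 AML library and nowhere in it in the KO AML library. The peaks, their fold enrichment and their q-values are the authors', called in each library separately. The NHD13 AML library had 7 peaks, from 29.7 to 75.3 kb past the start of Hoxb9, with a fold enrichment of 4.01 to 5.59 and a −log10 q of 4.12 to 7.9. They covered 43.1% of the body of Hoxb3, 32.6% of Hoxb4, 28.7% of Hoxb5 and 6.57% of Hoxb6, and none of the other 5 members. The widest, chr11:96339897-96346654, lay in Hoxb3 and had the highest fold enrichment. Among all RefSeq genes, 25.5% overlapped a peak in NHD13 AML and 14.4% in KO AML, against 4 and 0 of the 9 members. The KO AML list was shorter throughout, with 16902 peaks over 28.4 Mb against 30953 over 193 Mb, so absence from it is not particular to Hoxb. Of the other clusters, Hoxa held 3 peaks in NHD13 AML and 5 in KO AML, and Hoxc and Hoxd held none in either. The Hoxa peaks covered 43.2% of that cluster in NHD13 AML and 26.5% in KO AML. Within the window, 3 of the 5 losses from NHD13 to KO overlapped an NHD13 AML peak, where 28.7% of all losses of that table did, and 1 of 11 gains, where 3.6% did. These 3 losses lay in regions of Hoxb5, Hoxb4 and Hoxb3 that had gained methylation from WT to NHD13. At that earlier step, 4 of 9 gains and 2 of 13 losses overlapped such a peak, where 7.79% of all gains and 6.81% of all losses did. From KO to AML, 5 of 15 losses and 2 of 21 gains overlapped such a peak, where 1.98% of all losses and 8.44% of all gains did. The peaks come from leukemic spleen and the first 2 methylation steps from marrow, so they do not describe the same cells.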

How the data were processed

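The authors deposited whole-number counts per gene and FPKM for 12 RNA-seq libraries. The submitters' processing notes name HISAT2 2.0.5, HTSeq 0.9.1, Bismark 0.19.0, Bowtie2 2.2.9, SAMtools 1.7, MACS2 2.1.1.20160309 and mm10. A DMR caller was not given in the sources used here. The deposited DMR tables hold a methylation fraction per side, a difference score and the number of CpG sites. The deposited peak lists hold a fold ratio, −log10 p and q and a score per peak. The side of each DMR table was checked on regions that 2 tables share, where 99.5% (NHD13) and 99.8% (KO) of the values matched within 0.01.

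Counts were tested with edgeR 4.0.16 (R 4.3.3): TMM factors, its low-count filter, robust quasi-likelihood fits of 4 group means over 12 libraries with 8 residual degrees of freedom, two-sided, adjusted over 16233 genes. The code was tested on simulated data. DESeq2 1.42.0, limma 3.58.1 on log2(FPKM + 0.1) or log2(FPKM + 1), other filters and factors, a replicate block and leaving out each library were alternatives. DMRs and peaks were assigned by an overlap of at least 1 bp, without a test. Coordinates of genes came from RefSeq GRCm38.p6. No exon or UTR annotation was used.

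All 9 members are named, with at most 4 tested neighbours within 200 kb, at most 2 genes of smallest p per list and the 5 genes most like the member of highest mean FPKM. Hoxb3os, Mir10a and Mir196a-1 were named for their position, after their values were seen. The members and lists were chosen with earlier results of these data known. Replicate numbers were checked for pairing and did not pair the libraries.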

Additional observations from a re-analysis of the deposited data

How the results depend on the processing

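The number of Hoxb members passing depended on the filter, since all of them have few counts. With a filter of 1 CPM in 3 libraries, fewer members were tested, and 0 passed from WT to NHD13, 1 from KO to AML, 0 between KO and WT, 1 between AML and WT and 1 between AML and NHD13. With no filter, 5 passed from KO to AML and 5 between AML and NHD13. With only the 2 groups compared in the fit, Hoxb6 was no longer tested in the first step, from KO to AML or between AML and WT. Members passing were then 1 in the first step, 2 from KO to AML and 1 between AML and WT. Between AML and NHD13, 2 members passed in such a fit. With limma on log2(FPKM + 1), 1 passed between AML and WT. Leaving out single libraries gave 1 to 2 members from WT to NHD13. In the other comparisons it kept the counts within 1.5 times. Differences that had not passed changed sign for Hoxb4 in the first step (0.035 with the gene length trend removed, and -0.12 to 0.077 when single libraries were left out, the last without NHD13 replicate 2), for Hoxb6 from NHD13 to KO (-0.0059, without NHD13 replicate 1, to 0.36), for Hoxb7 there (-0.39, without KO replicate 2, to 0.34, and -0.052 without NHD13 replicate 2) and for Hoxb5os between KO and WT (-0.23 to 0.11, the last without WT replicate 3). Of 491 alternative values of fold changes, 480 kept direction and call. The cause of these changes was not tested.

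Same-numbered libraries did not deviate together: over 18 pairs r ran from -0.0876 to 0.109, and 4 correlated best with their own number. With a replicate block, the counts of members passing were 2, 0 and 3 in the steps, as without it, and Hoxb7 from NHD13 to KO was -0.028 on the log2 scale.

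Keeping only DMRs with a methylation difference of at least 0.3 left 6 losses from WT to NHD13 and 6 losses from KO to AML. From NHD13 to KO it left 1 gain and 3 losses. The gains from WT to NHD13 (9 without this cut) and from KO to AML (21 without it) stayed within 1.5 times of their number. A −log10 q of at least 5 left 3 of the 7 peaks, and 0 members had at least 50% of the body covered. Coverage of the bisulfite and ChIP libraries is unknown here, so no interval can be given for them.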
